A study of Mus musculus with 81 samples.

Results

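The effect of trisomy on dentate gyrus granule cells (DGCs) was examined in the offspring of choline-supplemented dams, by setting 9 Ts65Dn (Ts) libraries against 7 libraries of disomic (2N) mice. These 16 of the 81 libraries in the series were taken by the genotype, diet and cell type in their labels. Ts65Dn dams received chow with 5.0 g/kg choline chloride (ChP), the pups stayed on it to postnatal day 21, and both genotypes then ate the 1.1 g/kg control chow until brains were taken at about 6 months (MO). DGCs were microisolated by laser capture from Nissl-stained sections of the rostral hippocampus, with about 1175 neurons per brain, and each library comes from 1 mouse. Expression was measured by total RNA-seq and is given in CPM, read counts scaled to the library's size after TMM normalization. Libraries are named by genotype and number, 2N 1 to 2N 7 and Ts 1 to Ts 9.

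Ts65Dn mice carry a freely segregating extra chromosome, made of the distal end of mouse chromosome 16 (Mmu16) joined to the centromeric end of chromosome 17 (Mmu17). The Mmu16 segment holds many orthologs of genes on human chromosome 21 and makes the line a model of Down syndrome, whereas the orthologs of the Mmu17 genes lie on other human chromosomes, which limits the line as a model. Both genotypes were offspring of Ts65Dn dams and C57Bl/6J Eicher × C3H/HeSnJ F1 males. DGCs are the excitatory neurons that relay cortical input to CA3 through the mossy fibers. Choline is a precursor of acetylcholine and phosphatidylcholine and a donor of methyl groups.

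Total expected counts ran from 358355 to 1160838 in 2N and from 692841 to 1680698 in Ts. The shallowest libraries, 2N 6 (358355) and 2N 3 (412004), were both 2N, and a single surrogate variable loaded mostly on 2N 6. The granule cell markers were present in every library, with Prox1, the transcription factor that sets granule cell identity, at 789 CPM or more. Summed over its 11 genes, the granule cell list ran from 3935 to 4407 CPM (median 4008) in 2N and from 3593 to 4256 CPM (median 3904) in Ts. The ranges overlapped, and 6 of the 9 Ts libraries were below all 2N libraries. None of its 11 genes was called, with a median log2 fold change of 0.01. At an unadjusted p under 0.05, 1 was higher and 3 lower, beside 3.95% and 3.65% of all genes tested. All libraries expressed Y-linked genes such as Ddx3y (21.8 to 80.3 CPM), and 0 of 4 tested genes of the sex-linked check passed that threshold (median LFC 0.16).

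Genotype differences concentrated in the triplicated segments. Of 14162 genes tested by edgeR's quasi-likelihood test, 63 were called at a Benjamini-Hochberg adjusted p under 0.05, which is 0.445% of the genes tested. Higher in Ts were 51 genes (0.360%) and lower were 12 (0.0847%). The Mmu16 segment gave 27 called genes of 71 tested, the Mmu17 segment gave 9 of 33, and the 14058 genes elsewhere gave 27, of which 15 were higher and 12 lower in Ts. At the unadjusted p under 0.05 that the study uses for its differentially expressed genes (DEGs), 1076 genes passed (7.60%), with 559 higher (3.95%) and 517 lower (3.65%). The Mmu16 and Mmu17 segments held 53 and 20 of these DEGs. Of the other genes on these chromosomes, 0 of 372 on chromosome 16 and 2 of 607 on chromosome 17 were called. At the unadjusted threshold 18 of the 372 and 34 of the 607 passed. The count outside the segments depended on single libraries, falling to 18 without 2N 7 or without Ts 7 and reaching 40 without 2N 3.

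The shift within the segments was close in size to the ratio of gene copies. The median log2 fold change (LFC, Ts over 2N) was 0.60 over the 71 Mmu16 genes and 0.54 over the 33 Mmu17 genes, beside 0.01 over all genes elsewhere. It was 0.04 over the rest of chromosome 16 and -0.02 over the rest of chromosome 17. A ratio of 3 copies to 2 is 0.58 on that scale. All 33 Mmu17 genes and 69 of 71 Mmu16 genes had a positive LFC. The exceptions, Mis18a (a centromere licensing factor, LFC -0.49 ± 0.41) and 4930404I05Rik (LFC -0.18 ± 0.76), were both detected at a few CPM and did not pass even the unadjusted threshold. Whether a segment gene was called went with its level. Of the 52 segment genes above their median level 34 were called, against 2 of the 52 at or under it, while the medians were similar at 0.57 and 0.60 and the median SE was 0.12 against 0.40.

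**Figure D1:**
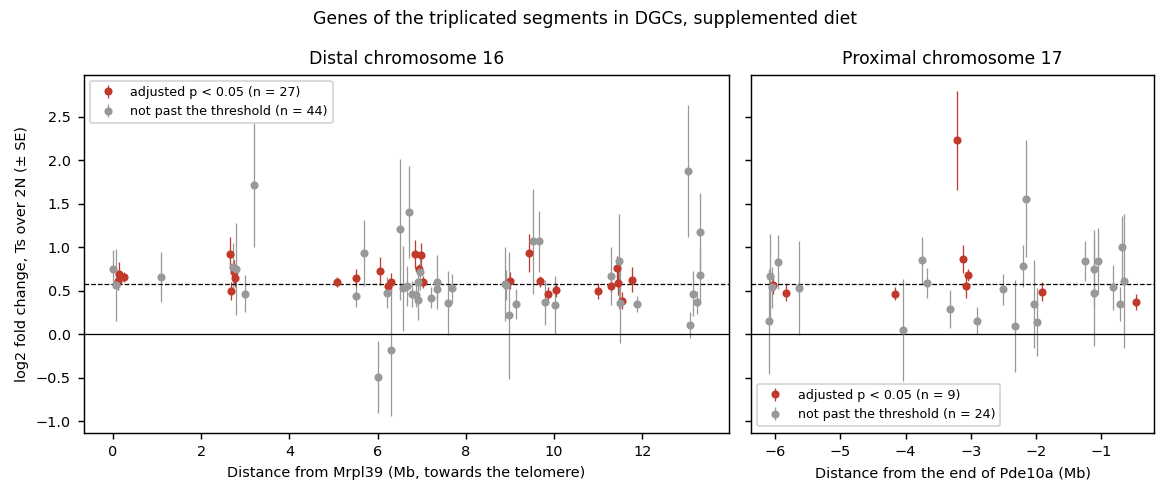
Log2 fold change (Ts over 2N, y axis, with SE bars) of each tested gene on distal chromosome 16 and proximal chromosome 17 by its distance in Mb from Mrpl39 or from the end of Pde10a (x axis). These segment genes scatter around the dashed line at 0.58, with medians of 0.60 and 0.54. Genes outside the segments are not drawn.

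Each library carried the shift on its own. Over the 40 Mmu16 genes above the median level of all segment genes, the median difference from the mean of the 2N libraries was -0.09 to 0.10 in the 7 2N libraries and 0.53 to 0.66 in the 9 Ts libraries, so that the genotypes did not overlap. For 12 Mmu17 genes it was -0.11 to 0.14 in 2N and 0.50 to 0.63 in Ts. The 6115 genes outside at the same level stayed between -0.03 and 0.04 in every library. These values check the genotype labels and all 16 libraries matched theirs.

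Among Mmu16 genes, the amyloid precursor protein gene App (chr16:84746573-84971126 in GRCm39) ran from 688 to 875 CPM (median 779.9) in 2N and from 1136 to 1343 CPM (median 1231) in Ts, and no Ts library overlapped a 2N library (LFC 0.66 ± 0.06, adjusted p = 4.6e-14). A list of 16 tested genes held App, its relatives Aplp1 and Aplp2 and genes that process, bind or traffic the protein. App was the only one called, and Sorl1, a sorting receptor for the protein, had the next smallest p (LFC -0.14, adjusted p = 0.58). The median LFC of that list was -0.01. Son, a splicing cofactor of nuclear speckles, ran from 627 to 859 CPM (median 731) in 2N and from 1119.6 to 1341 CPM (median 1192) in Ts and had the smallest p in the comparison (LFC 0.75 ± 0.06, adjusted p = 7.9e-16). Ttc3, a ubiquitin ligase gene, was separated in the same way (LFC 0.61 ± 0.06, adjusted p = 1.2e-13).

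Genes of the synapse and its signaling followed. Synj1 encodes synaptojanin 1, a phosphoinositide phosphatase of vesicle endocytosis, and ran from 350.4 to 451 CPM (median 419) in 2N and from 558 to 659 CPM (median 598) in Ts (LFC 0.56 ± 0.07, adjusted p = 1.5e-09). Its partner Itsn1, the endocytic scaffold intersectin 1, ran from 242 to 348 CPM (median 321) in 2N and from 407 to 553 CPM (median 471) in Ts (LFC 0.60 ± 0.07, adjusted p = 3.1e-09). The groups did not overlap for either gene. Tiam1, an activator of the small GTPase Rac, ran from 549 to 757 CPM (median 670.1) in 2N and from 908 to 1081 CPM (median 1029) in Ts (LFC 0.60 ± 0.06, adjusted p = 8.1e-12). Kcnj6, the GIRK2 potassium channel that GABA-B receptors open, ran from 192 to 258 CPM (median 227) in 2N and from 289 to 363 CPM (median 311) in Ts (LFC 0.51 ± 0.08, adjusted p = 2.7e-06). Ts and 2N libraries were again apart for both. Pcp4, a calmodulin-binding peptide gene, overlapped, running from 61.9 to 137 CPM (median 112) in 2N and from 116 to 199 CPM (median 158) in Ts. Its difference was close to the threshold (LFC 0.63 ± 0.14, adjusted p = 0.044), and the call was lost without 2N 1, 3, 4, 5 or 6 or without Ts 1, 5 or 7 (adjusted p up to 0.1). Dscam, a neuronal adhesion gene, was not called (LFC 0.35 ± 0.09, adjusted p = 0.063), nor was the kainate receptor gene Grik1, which was low in all libraries (LFC 1.72 ± 0.71, adjusted p = 0.47).

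Dyrk1a (chr16:94369804-94496380), a kinase that opposes calcineurin signaling to NFAT, ran from 137 to 201 CPM (median 181) in 2N and from 209 to 269 CPM (median 239) in Ts, without overlap (LFC 0.47 ± 0.08, adjusted p = 0.0002). Rcan1, a calcineurin inhibitor, had 7 of 9 Ts libraries above all 2N libraries but was not called (LFC 0.53 ± 0.17, adjusted p = 0.17). Sod1, the cytosolic superoxide dismutase, ran from 69.4 to 93 CPM (median 89.7) in 2N and from 112 to 159 CPM (median 131) in Ts (LFC 0.65 ± 0.10, adjusted p = 9.1e-06). Bach1, a repressor of antioxidant genes, was not called (LFC 0.47 ± 0.21, adjusted p = 0.54). Cct8, a subunit of the TRiC chaperonin, was higher and did not overlap (LFC 0.65 ± 0.10, adjusted p = 5.7e-06). So was N6amt1, a methyltransferase gene (LFC 0.93 ± 0.19, adjusted p = 0.0024). Gabpa, the DNA-binding subunit of the GABP transcription factor, had 8 of 9 Ts libraries above all 2N libraries (LFC 0.69 ± 0.14, adjusted p = 0.0017).

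The interferon receptor cluster lies in the same segment. Ifngr2, a chain of the interferon gamma receptor, ran from 21.8 to 50.1 CPM (median 29.4) in 2N and from 41.1 to 85.7 CPM (median 53.9) in Ts and was the 1 receptor gene called (LFC 0.92 ± 0.16, adjusted p = 0.00011). Its neighbors had positive LFCs that missed the adjusted threshold, at 0.47 for Ifnar1 (adjusted p = 0.17), 0.56 for Ifnar2 (adjusted p = 0.47) and 1.41 for Il10rb (adjusted p = 0.35). The list's 4 tested genes outside the segment, the receptor chain gene Ifngr1 and the kinase genes Jak1, Jak2 and Tyk2, had a median LFC of -0.13. Of 21 interferon response genes 8 were expressed enough to be tested, 0 were called and the median was -0.02. At p under 0.05, 1 was higher and 1 lower, beside 3.95% and 3.65% of all genes tested. Olig1, an oligodendrocyte transcription factor gene in the segment, was at 0 to 11.8 CPM (median 1.07) in 2N and was not called (LFC 0.53 ± 0.49, adjusted p = 0.88).

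In the Mmu17 segment, Tulp4, a tubby-like gene (chr17:6156712-6301403), ran from 248 to 284 CPM (median 278) in 2N and from 393 to 468 CPM (median 443) in Ts, without overlap (LFC 0.68 ± 0.07, adjusted p = 5.5e-12). Arid1b, a subunit of the BAF chromatin remodeler, was likewise separated (LFC 0.47 ± 0.07, adjusted p = 3.5e-06), as was Serac1, which acts in phosphatidylglycerol remodeling (LFC 0.87 ± 0.16, adjusted p = 0.00027). Scaf8, a binder of RNA polymerase II, was higher with 8 of 9 Ts libraries above all 2N libraries (LFC 0.57 ± 0.10, adjusted p = 9.6e-05). Tiam2, a relative of Tiam1, ran from 80.9 to 150.3 CPM (median 115) in 2N and from 121 to 201 CPM (median 153) in Ts (LFC 0.48 ± 0.10, adjusted p = 0.0073), and the call was lost without 2N 1 (adjusted p = 0.051). Pde10a (chr17:8744204-9205482), the phosphodiesterase at the segment's edge, ran from 129 to 153 CPM (median 134) in 2N and from 163 to 211 CPM (median 169) in Ts and did not overlap (LFC 0.37 ± 0.09, adjusted p = 0.019), yet the call was lost without 2N 4 or without Ts 1 or 7 (adjusted p up to 0.066). Synj2, a relative of Synj1, was low and ran from 0 to 5.47 CPM (median 1.05) in 2N and from 4.19 to 8.99 CPM (median 5.6) in Ts (LFC 2.23 ± 0.57, adjusted p = 0.044), and the call was lost without 2N 1, 2, 4, 5 or 7 or without Ts 1, 2, 4, 5, 6 or 7 (adjusted p up to 0.15). Tmem181a was not called (LFC 0.16 ± 0.16, adjusted p = 0.9), whereas in the normal-diet comparison given below it was (LFC 0.71, adjusted p = 0.018). Whether it shares reads with similar copies was not tested, and its expected counts were whole numbers in every library.

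**Figure D2:**
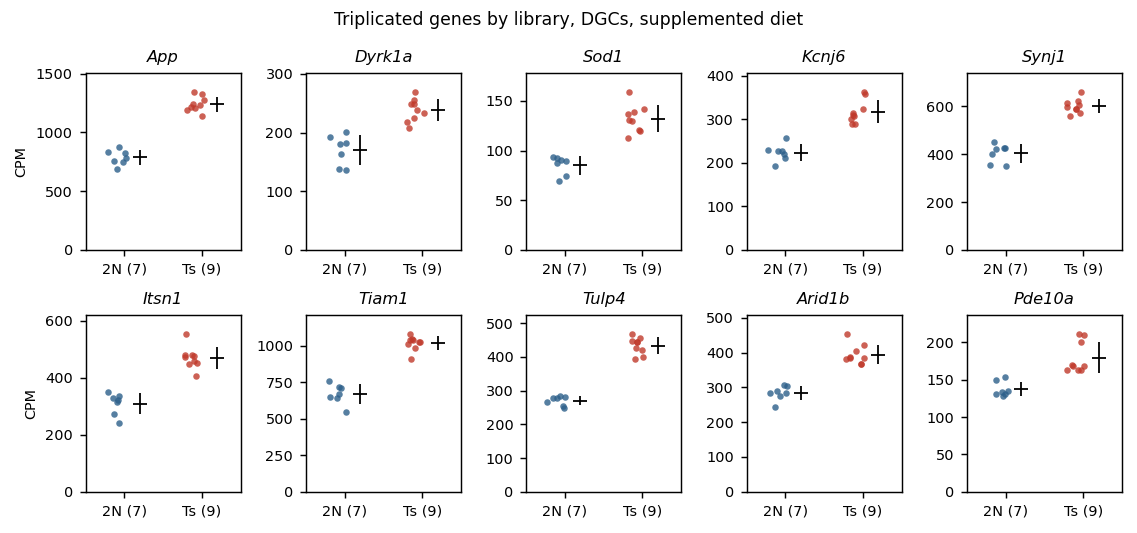
CPM (y axis) of 7 Mmu16 and 3 Mmu17 genes in each 2N (7 points) and Ts (9 points) library, with the mean and SD beside the points. In all 10 genes the Ts points lie above the 2N points without overlap, for App 1136 to 1343 against 688 to 875 CPM.

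Outside the segments, called genes were less cleanly separated. Groups did not overlap for 33 of the 14162 genes tested (0.233%), and among called genes this held for 20 of 27 on Mmu16, 4 of 9 on Mmu17, 1 of 15 higher genes elsewhere and 0 of 12 lower ones. The 1 gene was Aldoc (chr11:78213619-78218889), the brain aldolase that also stands on the astrocyte list. It ran from 44.1 to 55.5 CPM (median 49.1) in 2N and from 63.3 to 104 CPM (median 75.5) in Ts (LFC 0.64 ± 0.13, adjusted p = 0.0012). Of the 27 genes called outside the segments, 21 were also called by DESeq2 and 16 by limma-voom, against 26 and 25 of the 27 on Mmu16. Without both shallow 2N libraries 35 genes were called outside, 16 of them among the 27.

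Several of the higher genes act at synapses. Slitrk1, a synaptic adhesion gene, ran from 87.6 to 119 CPM (median 97.6) in 2N and from 114 to 172 CPM (median 144) in Ts (LFC 0.47 ± 0.10, adjusted p = 0.0049). Prrt2, which acts in transmitter release, ran from 249.7 to 304 CPM (median 279.5) in 2N and from 293 to 391 CPM (median 332) in Ts (LFC 0.32 ± 0.07, adjusted p = 0.01). Of the 9 Ts libraries, 7 lay above all 2N libraries for Slitrk1 and 8 for Prrt2. Cplx1, complexin 1 of the release machinery, was higher too (LFC 0.43 ± 0.11, adjusted p = 0.034), but the call was lost without 2N 1, 2, 4 or 6 or without Ts 1, 4, 7 or 8 (adjusted p up to 0.2). Frmpd4, a scaffold of the postsynaptic density, was higher (LFC 0.40 ± 0.10, adjusted p = 0.027), and the call was lost without 2N 2, 3 or 4 or without Ts 1, 2 or 4 (adjusted p up to 0.13). Mef2c, a transcription factor of neuronal activity programs, rose least (LFC 0.28 ± 0.07, adjusted p = 0.039), and the call was lost without 2N 2, 4, 5 or 7 or without Ts 2, 3, 7 or 9 (adjusted p up to 0.11). Of the 32 vesicle release and endocytosis genes tested, 4 were called and all were higher, Synj1, Itsn1 and Synj2 from the segments and Cplx1 from outside. The median LFC of that list was 0.07.

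Gad2 (chr2:22511862-22583886), the GABA-synthesizing enzyme GAD65, ran from 12.7 to 54.4 CPM (median 30.1) in 2N and from 49.6 to 88.4 CPM (median 73.5) in Ts, and 6 of the 9 Ts libraries were above every 2N library (LFC 1.02 ± 0.20, adjusted p = 0.01). The call held without any single library but was lost without the 2 shallowest 2N libraries and in a fit of both diets together (adjusted p up to 0.18).

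The other higher genes had mixed roles. Epb41, the membrane skeleton protein 4.1R, ran from 73 to 135 CPM (median 94.3) in 2N and from 107 to 165 CPM (median 138) in Ts (LFC 0.51 ± 0.11, adjusted p = 0.0058). Nrip3, a gene of uncertain role, had 7 of 9 Ts libraries above all 2N libraries (LFC 0.55 ± 0.13, adjusted p = 0.017), and the call was lost without 2N 1 or 7 (adjusted p up to 0.098). Vegfa, a vascular growth factor, was low and ran from 1.82 to 11.4 CPM (median 4.77) in 2N and from 7.78 to 28.7 CPM (median 14.4) in Ts. Its values overlapped (LFC 1.36 ± 0.32, adjusted p = 0.017), and the call was lost without 2N 5 or 7 or without Ts 7 (adjusted p up to 0.079). Plce1, a phospholipase C, was higher (LFC 1.09 ± 0.24, adjusted p = 0.0073), and the call was lost without 2N 1 (adjusted p = 0.051). Dchs2, a protocadherin, had the largest LFC of the called higher genes outside the segments (LFC 2.30 ± 0.52, adjusted p = 0.027). It was low and overlapped, at 0 to 4.27 CPM in 2N and 1.11 to 25.1 CPM in Ts. The call was lost without 2N 1, 4, 5, 6 or 7 or without Ts 7 (adjusted p up to 0.12). Rtl3, an X-linked gene derived from a retrotransposon, was higher (LFC 1.36 ± 0.26, adjusted p = 0.001). Gm34567 lies past the end of the Mmu17 segment and overlaps Smoc2 on the same strand, so that its reads are uncertain (LFC 0.67 ± 0.13, adjusted p = 0.00092). An Ensembl gene with no symbol, ENSMUSG00000085133, completed the 15 (LFC 1.50 ± 0.37, adjusted p = 0.028), and the call was lost without 2N 2, 4, 5 or 7 or without Ts 2, 3, 4 or 7 (adjusted p up to 0.12).

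Among the 12 lower genes, Cacna1g (chr11:94299217-94365230), the T-type calcium channel Cav3.1, had the smallest p. It ran from 14.3 to 41.2 CPM (median 28.8) in 2N and from 5.74 to 23.9 CPM (median 11.1) in Ts, and 5 of the 9 Ts libraries were below all 2N libraries (LFC -1.06 ± 0.22, adjusted p = 0.0026). Slc43a2, a neutral amino acid transporter, ran from 53.4 to 93.5 CPM (median 67.7) in 2N and from 41.4 to 56.8 CPM (median 49.6) in Ts, with 8 Ts libraries below all 2N ones (LFC -0.58 ± 0.13, adjusted p = 0.0083), but the call was lost without 2N 4 or 7 (adjusted p up to 0.08). Tspan18, a tetraspanin, was lower (LFC -0.59 ± 0.13, adjusted p = 0.0055), and the call was lost without 2N 1 (adjusted p = 0.086). Ucp2, a mitochondrial carrier, ran from 9.67 to 32.4 CPM (median 21.8) in 2N and from 1.3 to 17.2 CPM (median 6.72) in Ts (LFC -1.28 ± 0.30, adjusted p = 0.027), and the call was lost without 2N 2, 4, 5 or 7 or without Ts 4, 5, 6 or 8 (adjusted p up to 0.11). Kifc2, a neuronal kinesin, fell least (LFC -0.34 ± 0.09, adjusted p = 0.044), and the call was lost without 2N 1, 5, 6 or 7 or without Ts 3, 4, 5, 6, 7 or 9 (adjusted p up to 0.16). Pcdhga9, whose constant exons are shared by its gene cluster and whose reads are therefore uncertain, was lower as well (LFC -0.91 ± 0.22, adjusted p = 0.019), and the call was lost without 2N 1, 6 or 7 or without Ts 6 (adjusted p up to 0.18).

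The remaining lower genes were transcriptional regulators and a kinase. Dyrk1b, the paralog of the triplicated Dyrk1a, ran from 21.9 to 57.8 CPM (median 50.2) in 2N and from 20 to 33.4 CPM (median 30.1) in Ts (LFC -0.70 ± 0.16, adjusted p = 0.01), and the call was lost without 2N 4 or 7 (adjusted p up to 0.071). Within the calcineurin and NFAT list of 14 tested genes, Dyrk1a was thus called higher and Dyrk1b lower, with a median of 0.06. Of that list 5 were higher and 2 lower at p under 0.05, beside 3.95% and 3.65% of all genes tested. Gabpb2, a partner subunit of the triplicated Gabpa, ran from 69 to 109.7 CPM (median 95.6) in 2N and from 53.1 to 74.8 CPM (median 72.8) in Ts (LFC -0.46 ± 0.11, adjusted p = 0.027), and the call was lost without 2N 1, 2, 3, 4, 6 or 7 or without Ts 2 or 7 (adjusted p up to 0.093). Bhlhe40, a repressor tied to the circadian clock, ran from 118 to 186 CPM (median 153) in 2N and from 89 to 140.1 CPM (median 110.1) in Ts (LFC -0.43 ± 0.10, adjusted p = 0.013), and the call was lost without 2N 2 or 3 or without Ts 2 (adjusted p up to 0.071). Mxd4, an antagonist of Myc, was lower (LFC -0.49 ± 0.12, adjusted p = 0.043), and the call was lost without 2N 1, 2, 4, 6 or 7 or without Ts 1, 2, 4, 5, 6 or 7 (adjusted p up to 0.24). Eya1, a developmental cofactor, was lower (LFC -0.85 ± 0.22, adjusted p = 0.046), and the call was lost without 2N 2, 3, 4, 5, 6 or 7 or without Ts 2, 4, 6, 7 or 9 (adjusted p up to 0.21). Pou3f1, a transcription factor on the CA1 list, ran from 0 to 23.6 CPM (median 3.93) in 2N and from 0 to 2.61 CPM (median 0.598) in Ts and had the most negative LFC (-2.95 ± 0.62, adjusted p = 0.0058). limma-voom did not call it.

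**Figure D3:**
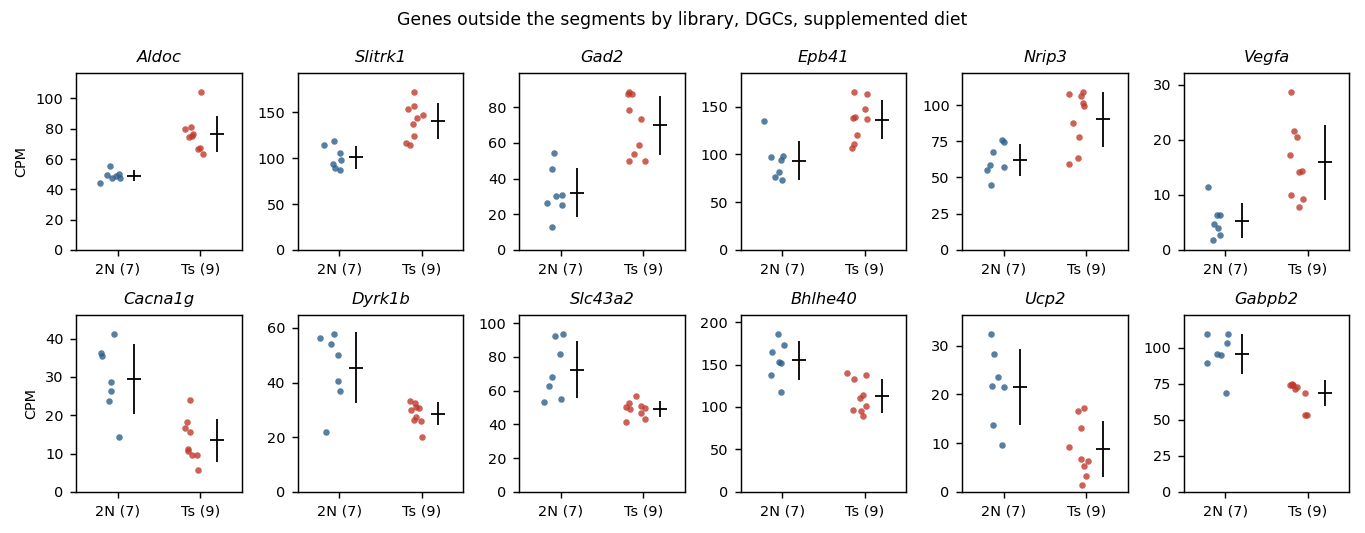
CPM (y axis) of 12 called genes outside the segments in each 2N (7 points) and Ts (9 points) library, with the mean and SD beside the points. Aldoc is the 1 gene shown whose groups do not overlap, and in the 6 lower genes, from Cacna1g on, some Ts points reach the lowest 2N points.

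Markers of other cell types moved with genotype in part. In microisolated pools, fewer cells of a type and less RNA per cell cannot be told apart. The inhibitory neuron list of 9 genes ran from 202 to 283 CPM (median 250.4) in 2N and from 258 to 389 CPM (median 321) in Ts, summed per library, and 8 of the 9 Ts libraries were above all 2N libraries. Within that sum Gad1 alone ran from 145 to 214 CPM in 2N and from 172 to 240 CPM in Ts. Of the list's 7 tested genes 1, Gad2, was called and 4 were higher at p under 0.05, beside 3.95% of all genes tested. Besides Gad2 these were the vesicular GABA transporter Slc32a1 (LFC 0.72, adjusted p = 0.32), Dlx6os1 (LFC 0.79, adjusted p = 0.42) and Gad1 (LFC 0.19, adjusted p = 0.58). The median LFC was 0.67 over the list's 7 tested genes, beside 0.01 over all genes tested and 0.05 for the list on the normal diet. Sst was at 0 in 6 of 7 2N and 4 of 9 Ts libraries and reached 1.05 and 8.61 CPM. Vip was at 0 in 5 2N and 6 Ts libraries, and Pvalb reached 3.96 CPM. Every library had counts for Gad1, Gad2, Slc32a1, Dlx6os1 and Lhx6, the last at 2.39 to 9.54 CPM. Lhx6 was the 1 tested gene of the list with a negative LFC (-0.3, adjusted p = 0.94). The part of interneurons in the Gad2 result was not tested.

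The astrocyte list ran from 788 to 1082 CPM (median 883) in 2N and from 892 to 1274 CPM (median 1073) in Ts, and 4 Ts libraries were above all 2N libraries. Within that sum Slc1a2 alone ran from 586 to 828 CPM in 2N and from 600 to 937 CPM in Ts (LFC 0.18, adjusted p = 0.7). Aldoc was called, and of the other 7 genes Slc1a3, a glutamate transporter, passed p under 0.05 (LFC 0.29, adjusted p = 0.37). The median over its 8 genes was 0.23. The part of astrocytes in the Aldoc result was not tested. The 8 microglial genes summed from 19.1 to 36.3 CPM (median 27.5) in 2N and from 25.9 to 50.4 CPM (median 40.1) in Ts, and 6 Ts libraries were above all 2N libraries, with 0 called, a median LFC of 0.19 and Csf1r, a growth factor receptor, the 1 gene at p under 0.05 (LFC 1.18, adjusted p = 0.11). The CA3 list ran from 109 to 169.7 CPM (median 150.3) in 2N and from 144 to 219 CPM (median 181) in Ts, with 5 Ts libraries above all 2N libraries and Coch at 0 throughout. Of its 6 tested genes 0 were called (median LFC 0.51), and Cpne4, a copine, passed p under 0.05 (LFC 0.48, adjusted p = 0.23). The CA1 list summed from 35.6 to 77.8 CPM (median 52.8) in 2N and from 28.7 to 48.8 CPM (median 41.4) in Ts, and 2 Ts libraries were below all 2N libraries. Its 4 tested genes had no common direction (median LFC -0.35), with Pou3f1 called lower, Fibcd1 at p under 0.05 (LFC -0.73, adjusted p = 0.094), Mpped1 at 0.58 and Wfs1 at 0.02. The part of neighboring neurons in these values was not tested. Mossy cell genes summed to at most 24.4 CPM, with Csf2rb2 and Glipr1 at 0 throughout and 0 of 2 tested genes at p under 0.05 (median LFC 0.55). Lists of oligodendrocyte, oligodendrocyte precursor, vascular and choroid plexus genes overlapped between genotypes with 0 genes called and medians of 0.12, -0.24, -0.18 and 0.20 in that order. Of their genes 1, the myelin gene Mag, passed p under 0.05 (LFC 1.69, adjusted p = 0.27).

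**Figure D4:**
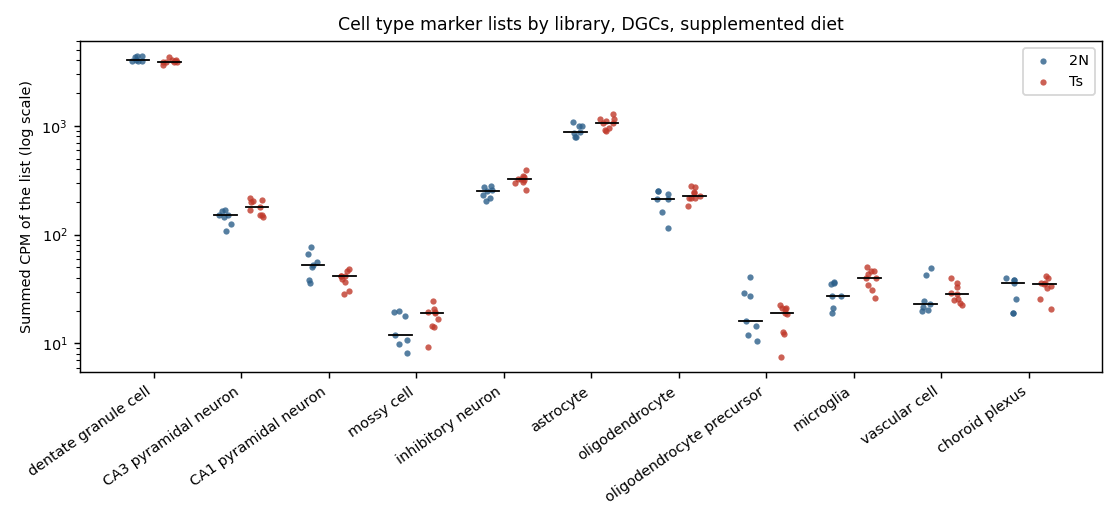
Summed CPM (y axis, log scale) of 11 cell type marker lists in each 2N and Ts library, with lines at the group medians. Granule cell genes dominate at 3593 to 4407 CPM, and in the inhibitory list 8 of 9 Ts points lie above all 2N points, with medians of 250.4 and 321 CPM.

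The same genotypes were compared in DGCs of offspring on the normal diet (6 Ts and 6 2N libraries, 1.1 g/kg choline), which share no mouse with the supplemented groups. The labels conflict for 1 of the 6 2N mice, whose CA3 library is labeled Ts. Its DGC library was used as 2N, as labeled. Of 13442 genes tested 79 were called (0.588%), with 24 on Mmu16, 9 on Mmu17 and 46 elsewhere, and 1143 passed p under 0.05 (8.50%). The 27 Mmu16 genes called on the supplemented diet were all higher in Ts on the normal diet at p under 0.05, and 19 were called in both. Of the 9 Mmu17 genes, 7 were called in both and 1, Pde10a, had an LFC near 0 (-0.01). Median LFCs of these genes were 0.62 and 0.56 on Mmu16 and 0.56 and 0.67 on Mmu17, on the supplemented and normal diet in that order.

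Genes outside the segments kept their sign, with smaller median LFCs on the normal diet. All 26 that could be tested had the same sign, 13 of them passed p under 0.05 and 5 were called, Cacna1g (LFC -1.09, adjusted p = 0.011), Epb41 (LFC 0.46, adjusted p = 0.04), Cplx1 (LFC 0.50, adjusted p = 0.0064), Nrip3 (LFC 0.66, adjusted p = 0.0044) and Frmpd4 (LFC 0.42, adjusted p = 0.033). Higher genes had a median LFC of 0.64 on the supplemented and 0.43 on the normal diet, and lower genes -0.59 and -0.24. These genes were chosen for their size on the supplemented diet, so the smaller normal-diet medians are a description. Gad2 had an LFC of 0.05 on the normal diet and Dyrk1b -0.07. Read the other way, of the 46 genes called outside on the normal diet 44 had the same sign with supplementation, 23 at p under 0.05, and 5 were called.

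The difference between diets was tested directly as a genotype by diet interaction over the 28 DGC libraries. By edgeR 0 of 16537 genes were called and 656 passed p under 0.05 (3.97%). limma-voom also called 0 and DESeq2 called 1, Gm20458. Of the 63 genes, 10 had an unadjusted interaction p under 0.05. Among the called genes named here the smallest p were those of Pde10a (difference 0.38 ± 0.14, adjusted p = 1) and Dyrk1b (-0.63 ± 0.23, adjusted p = 1), and Gad2 was at 0.97 ± 0.43 (adjusted p = 1). None of these passed after adjustment over all genes. Genes outside the segments picked from the normal-diet comparison had LFCs with supplementation of -0.40 for Grik3 (adjusted p = 0.087), 0.72 for Cdhr1 (adjusted p = 0.31), 0.75 for Stc1 (adjusted p = 0.7) and -0.41 for Sox4 (adjusted p = 0.7), and Nrip3 was the 1 of 5 called (median of the 5, 0.55). These 5 were picked with the normal-diet results of these data known.

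**Figure D5:**
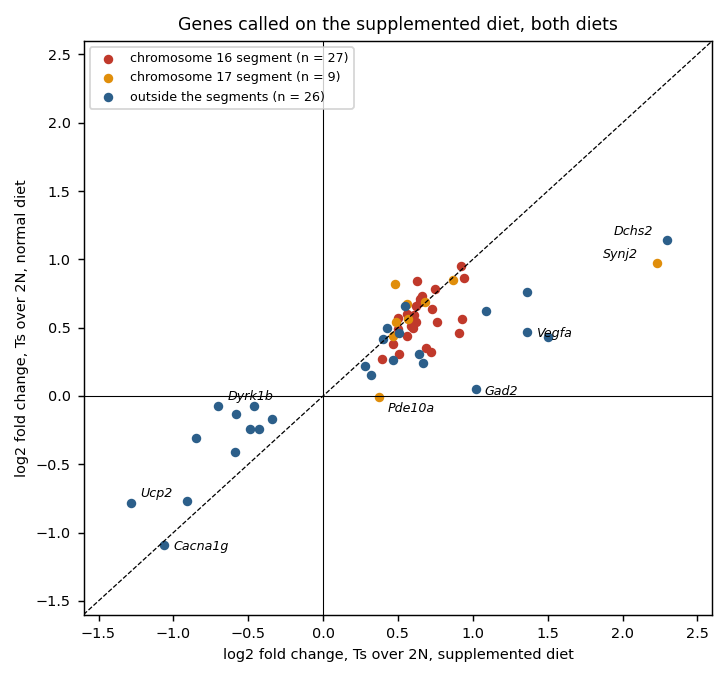
Log2 fold change (Ts over 2N) on the normal diet (y axis) against the supplemented diet (x axis) of the 62 genes called on the supplemented diet and tested on both, with the line of equal change. Segment genes gather near 0.58 on both axes, and genes outside, such as Gad2 at 1.02 and 0.05, lie mostly nearer to 0 on the normal diet.

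The supplemented mice also gave CA1 and CA3 pyramidal neurons (PNs), so these libraries share mice with the DGCs. There were 9 Ts and 7 2N libraries for CA1, and 7 Ts and 7 2N libraries for CA3. Counts of called genes also depend on the number of libraries. CA1 PNs had 7 of 14300 genes called (0.0490%), 6 on Mmu16 and 1 on Mmu17. CA3 PNs had 35 of 14041 called (0.249%), of which 25 were on Mmu16, 6 on Mmu17 and 4 elsewhere. Median Mmu16 LFCs were 0.46 in CA1 and 0.53 in CA3, beside 0.60 in DGCs. Tiam1 was at 0.10 in CA1, 0.90 in CA3 and 0.60 in DGCs. In edgeR's interaction tests of DGCs against CA1 and against CA3, 0 of 94 Mmu16 genes were called, so no difference was called for Tiam1. Tested as an interaction over 18435 genes without pairing libraries by mouse, the DGC effect differed from that in CA1 for 1 gene. It was the cannabinoid receptor CB1 gene Cnr1 (chr4:33922982-33948836, difference 1.37 ± 0.23, adjusted p = 0.0051). Cnr1 had an LFC of 1.05 ± 0.24 in DGCs (adjusted p = 0.084), -0.33 in CA1 and 0.01 in CA3. With mouse as a block, Cnr1 missed the threshold (adjusted p = 0.052) and the gene called against CA1 was Gad2 (1.38 ± 0.23, adjusted p = 0.0015), and Gad2 was also the 1 gene called against CA3 (1.24 ± 0.23, adjusted p = 0.032), where the fit without the block called 0 genes and 814 passed p under 0.05. Gad2 had LFCs of -0.31 in CA1 and -0.22 in CA3. The part of interneurons in the Cnr1 and Gad2 results was not tested.

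The lists of neurotransmitter receptors and GIRK channels, with their auxiliary and signaling proteins, held 48 coding genes outside the segments. Of these 0 were called, and 8 (16.7%) passed p under 0.05, 2 higher and 6 lower, beside 7.13% of all genes outside. Grin1, the obligate NMDA receptor subunit, ran from 566 to 711 CPM (median 616) in 2N and from 469.9 to 582 CPM (median 556) in Ts and was not called (LFC -0.22 ± 0.07, adjusted p = 0.11). With Grin3a it made 2 of 6 NMDA receptor genes lower at p under 0.05, with 0 called and a median LFC of -0.04. Of 16 AMPA and kainate receptor genes, auxiliary subunits included, 0 were called (median LFC -0.02), and Grik3, a presynaptic kainate receptor, had 7 Ts libraries below all 2N ones (LFC -0.40 ± 0.11, adjusted p = 0.087). Cacng8, an AMPA receptor auxiliary subunit, also passed p under 0.05 (LFC -0.25, adjusted p = 0.53). Metabotropic glutamate receptor genes had 0 of 7 called, with Grm2 at -0.27 and Grm4 at 1.16, both at p under 0.05 (median LFC -0.06). None of 12 GABA-A receptor genes passed p under 0.05 (median LFC 0.10). In the GABA-B and GIRK list Kcnj6 was the 1 called of 9 coding genes (median LFC 0.06), beside Gabbr1, a GABA-B receptor subunit, (LFC 0.18, adjusted p = 0.4) and Kcnj9, which encodes GIRK3, (LFC -0.34, adjusted p = 0.65), both at p under 0.05. The symbol Kctd16 belonged to a coding gene (LFC 0.17, adjusted p = 0.77) and to a noncoding RNA gene (LFC 0.36, adjusted p = 0.23), and the noncoding gene is not among the 9.

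Choline and phosphatidylcholine genes did not pass either threshold, with 0 of 15 tested at p under 0.05, beside 7.60% of all genes, and a median LFC of 0.01. Genes of one-carbon metabolism and methylation had 1 of 23 called, N6amt1 of the Mmu16 segment. Antioxidant genes had 1 of 20 called, Sod1, and chaperonin and heat shock genes 1 of 20, Cct8, so that each call came from a triplicated member. Outside the segments these lists had medians of 0.03, 0.07 and -0.03. Neurogenesis genes had 0 of 11 at p under 0.05 (median LFC 0.01). Immediate early genes had 1 of 14, Nr4a3 (LFC 0.55, adjusted p = 0.51), and a median of 0.12. Neurotrophin genes had 1 of 7, the BDNF receptor Ntrk2 (LFC 0.15, adjusted p = 0.64), and a median of 0.15, with 0 called in these lists. Circadian genes had Bhlhe40 called of 16, with Nr1d1 at -0.26 (adjusted p = 0.61) and 12 of 16 LFCs negative (median LFC -0.06).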

How the data were processed

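Expected counts per gene for 16 DGC libraries, 1 per mouse, were taken from the deposited DGC matrix, which equals all 16 library files (tolerance 1e-09). Per the labels and methods, the authors trimmed reads (Trimmomatic 0.39), aligned them with STAR to GRCm39 and made the expected counts with RSEM, with quality measures from FastQC 0.11.9 and Picard 2.26.2. These counts, with 0.752% of values not whole, were rounded. Genes over 0.1 CPM in at least 10 libraries, which here means at least 1 read, were scaled by TMM and tested with edgeR 4.0.16 (R 4.3.3) by its two-sided quasi-likelihood test, robust, with Benjamini-Hochberg adjustment over all genes tested. The filter and the unadjusted threshold are the study's. Its limma-voom covariates (RNA concentration and alignment percentages) were not used here. LFCs are given with SE, and CPM with lowest, median and highest library. The tests set the genotype difference against the spread between libraries. With 1 library per mouse, that spread holds variation of mouse, capture and library, which cannot be separated here.

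Of 57010 gene IDs, 56310 had a symbol. The segments were set by GRCm39 position, from the start of Mrpl39 (84502276 on chromosome 16) to the telomere and up to the end of Pde10a (9205482 on chromosome 17). Named genes were 26 chosen segment genes, the 5 smallest p of each segment, the 12 higher and 12 lower called genes with the smallest p elsewhere, 5 normal-diet genes, up to 4 per list by p, and interaction calls. Gabpa, Gm20458, ENSMUSG00000085133, Mef2c, Mis18a, 4930404I05Rik and Tmem181a were named after their values were seen. The 32 gene lists and the comparison itself were chosen with earlier results of these data known. Alternatives were DESeq2 1.42.0, limma-voom (limma 3.58.1), total counts in place of TMM, other filters, 1 surrogate variable (sva 3.50.0), the first part of the mouse number as a term, both diets in 1 fit and each library left out. The fits were tested on simulated data.

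Total counts of 358355 to 1680698 set the precision, and for low genes the SE is large. Replicate pairs differed beyond counting noise (chi-square per degree of freedom of at least 1.60). Mice gave several populations, so mouse numbers in the labels pair libraries across populations: over 7673 genes, deviations of 44 same-mouse pairs had a median correlation of 0.11 (0.02 to 0.23), against -0.01 for 660 pairs of different mice.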

Additional observations from a re-analysis of the deposited data

Results flagged for a closer look

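Of 144 groups of values examined, 7 held a library far from the others of its genotype, and chance gives about 1 in 20. Total counts in Ts were highest in Ts 9 at 1680698, with the other Ts libraries between 692841 and 938153. Itsn1 was highest in Ts 7 at 553 CPM, with the other Ts libraries at 407 to 481. Ifnar1 was highest in 2N 6, a shallow library, at 65.7 CPM, beside 31.7 to 45.9 in the other 2N libraries. Olig1 was highest in Ts 2 at 12.9 CPM, beside 1.32 to 6.72. Aldoc reached 104 CPM in Ts 4, beside 63.3 to 80.9 in the other Ts libraries, all of them above the 2N libraries. Epb41 reached 135 CPM in 2N 4, beside 73.0 to 98.1 in the other 2N libraries. Pcdhga9, whose reads are shared within its cluster, reached 31.3 CPM in Ts 7, beside 8.99 to 19.8.

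The genotype effect on Cnr1 was estimated as larger in DGCs than in CA1 PNs of the same mice, by 1.37 on the log2 scale. Its call came from the edgeR interaction test that did not pair libraries by mouse (adjusted p = 0.0051). With mouse as a block Cnr1 was not called (adjusted p = 0.052), and Gad2 was.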

How the results depend on the processing

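Direction held for all 60 single genes examined in each alternative that tested them (the filterByExpr filter tested 52 and left out 8), and 24 of the 48 called ones stayed called under all 9 alternatives and without any of the 16 libraries, 17 of them segment genes. Of the single-gene values over all settings, 177 were no longer called, 8 became called and 0 reversed. With no filter on low counts 99 genes were called, 59 of them outside the segments (31 higher and 28 lower), where more low genes were tested. Other settings gave 50 to 70 calls in all. Leaving out 1 library at a time gave 52 to 73 calls in all, 25 to 27 on Mmu16, 6 to 10 on Mmu17 and 18 to 40 outside. Leaving out both shallow 2N libraries, an alternative chosen after seeing the data, gave 66 calls, of which 47 were among the 63, and 35 outside the segments, of which 16 were among the 27. For the diet interaction, DESeq2 and the fit with no filter each called 1 gene, Gm20458.

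No paired analysis was possible because no mouse is in both genotypes. For the population interactions, mouse as a replicate block called 1 gene against CA3 where the fit without the block called 0. Against CA1 each fit called 1 gene, but not the same one, Cnr1 without the block and Gad2 with it. Genes of low level had few reads in the shallow libraries, and a missed call there does not show that a gene was equal.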

Other observations

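Cholesterol synthesis genes had a median LFC of 0.22 over 20 tested genes, beside 0.01 over all genes, and 18 of the 20 were positive. None was called, and 6 were higher and 1 lower at p under 0.05, beside 3.95% and 3.65% of all genes tested. Sqle, squalene epoxidase, ran from 3.15 to 16.7 CPM (median 9.08) in 2N and from 3.33 to 25.8 CPM (median 14.1) in Ts (LFC 0.77 ± 0.31). Srebf2, the transcription factor of the pathway, ran from 66.8 to 131 CPM (median 105) in 2N and from 97.6 to 160.1 CPM (median 127) in Ts (LFC 0.25 ± 0.10). Nsdhl, a sterol dehydrogenase, was at -0.78 ± 0.32. On the normal diet the list's median was 0.18, with 0 called and 4 genes higher at p under 0.05, where 8.50% of all genes passed in either direction.

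Gm20458 was at 0 to 35.8 CPM (median 7.92) in 2N and 0 to 5.55 CPM (median 2.61) in Ts on the supplemented diet (LFC -1.96 ± 0.60, adjusted p = 0.22). Rcan2, a calcineurin regulator outside the segments, ran from 8.21 to 14.5 CPM (median 12.3) in 2N and from 8.61 to 31.1 CPM (median 22.2) in Ts (LFC 0.75 ± 0.24, adjusted p = 0.2).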
